A study of Mus musculus with 14 samples.

Results

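Grm2, Grm3, Grm4, Grm5, Grm7 and Grm8 encode metabotropic glutamate receptors, and their RNA was measured in the hippocampus of 14 mice. These 6 genes were picked by name from the 24421 genes of the count table, and all 6 were among the 14897 genes with enough counts to be tested. The groups were 7 mice labelled LPAR2-/- and 7 wild-type (WT) mice, with 1 library per mouse, and the comparison asked whether transcription in the naive hippocampus differs when LPAR2, a receptor for lysophosphatidic acid, is missing. According to the labels all were untreated, naive males of 10 to 12 weeks, of strain 129.C57Bl6. The series text calls the mice middle-aged to aged, and the paper's methods give its experiments in general an age range above that of the labels. For the naive mice used for brain slices, the methods give a young range that includes that of the labels, and an older one. They state no age for these libraries in particular, so their age is not known. The paper's methods and the labels name the hippocampus as the tissue, while its results name the dentate gyrus. The LPAR2-/- colony lacks a part of exon 2 of Lpar2 and was bred as homozygotes beside a separate control colony of mixed C57BL/6 and 129/SvJ background, so that genotype and colony cannot be told apart.

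Metabotropic glutamate receptors are G protein-coupled receptors that tune synapses rather than carry the fast current. Group I receptors, such as Grm5, couple to Gq, release calcium from internal stores and sit mostly at the edge of the postsynaptic membrane. Group II (Grm2, Grm3) and group III (Grm4, Grm6, Grm7, Grm8) receptors couple to Gi/o, lower cyclic AMP and mostly restrain transmitter release from presynaptic terminals. In the hippocampus, Grm2 is known for its place on the mossy fibres of dentate granule cells, Grm3 is also made by astrocytes, Grm7 lies in the active zone and Grm6 belongs to bipolar cells of the retina.

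Between 15434620 and 23258949 reads were counted per mouse. Lpar2 itself went against the labels, with 27 to 66 counts in WT mice and 144 to 234 in mice labelled LPAR2-/-. Its log2 fold change was 2.01 (SE 0.157, adjusted p = 8.2e-07, edgeR), and this count over the whole gene does not show which exons the reads came from. Every direction below is therefore that of mice labelled LPAR2-/- minus mice labelled WT, and WT stands for that label throughout. Whether the labels were exchanged was not tested, and every direction would turn if they were. Of all genes tested, 1009 (6.77%) passed an adjusted p of 0.05 in edgeR's quasi-likelihood test, 494 (3.32%) higher and 515 (3.46%) lower. Markers of dentate granule cells, CA1 and CA3 pyramidal cells and astrocytes were detected. In 5 marker sums 1 mouse stood far from its group: WT mouse 1 (oligodendrocyte precursors), WT mouse 2 (CA1 pyramidal cells), WT mouse 4 (meninges), mouse 2 labelled LPAR2-/- (choroid plexus) and mouse 3 labelled LPAR2-/- (oligodendrocytes).

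The receptor genes differed widely in abundance. In CPM (counts scaled to library size) divided by the kilobases of counted exon (CPM per kb), the order of the WT means was Grm2, Grm5, Grm7, Grm3, Grm4 and Grm8. Grm2 stood at 60.1 ± 8.88 (SD, n = 7) and Grm5 at 32.2 ± 2.14. Grm7 followed with 18.4 ± 1.08 and Grm3 with 11.5 ± 2.11. Grm4 and Grm8 were the scarce members, at 1.68 ± 0.173 and 1.16 ± 0.190. All 5 pairs of neighbours in this order differed in the same direction in 7 of 7 WT mice (exact two-sided sign-flip permutation test, p = 0.0156 each and after adjustment over 5 pairs, the smallest that 7 mice allow). The widest step was from Grm3 to Grm4, 6.87-fold. The means of mice labelled LPAR2-/- had the same order, but there Grm4 (1.37 ± 0.324) and Grm8 (1.217 ± 0.248) did not differ beyond their spread (higher in 5 of 7 mice, exact p = 0.25, adjusted p = 0.25), and Grm2 exceeded Grm5 in 6 of 7 mice (exact p = 0.0313, adjusted p = 0.0391). The order rests on length, because without division by exon length Grm5 came before Grm2.

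**Figure D1:**
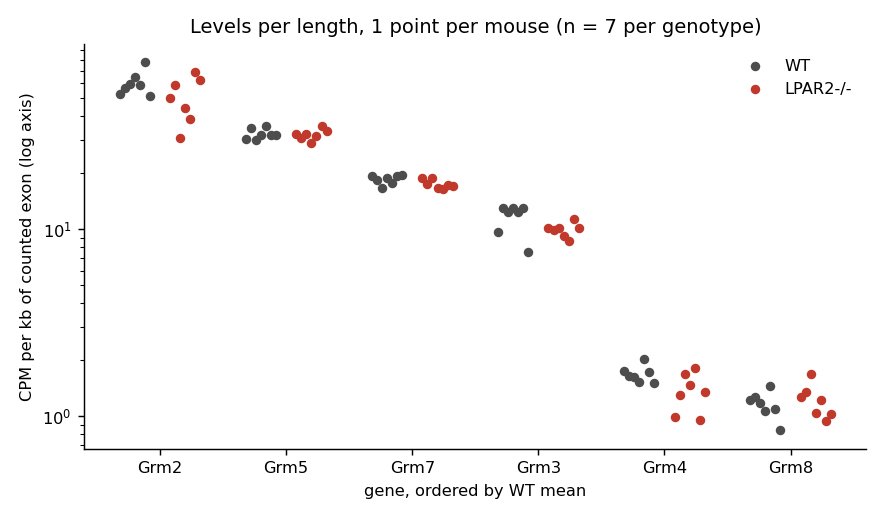
Level of each receptor gene in CPM per kb of counted exon, on a log axis, with 1 point per mouse (grey, 7 WT mice; red, 7 mice labelled LPAR2-/-). Grm2 leads with a WT mean of 60.1, and Grm4 and Grm8 lie near 1, with their points overlapping in mice labelled LPAR2-/-.

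Summed by receptor group, the group II members Grm2 and Grm3 made up 57.1% ± 3.55 (SD, n = 7) of the members' CPM per kb in WT mice and 53.1% ± 5.94 in mice labelled LPAR2-/-. Grm5, the group I member, made up 25.8% ± 2.27 and 28.7% ± 3.10. The group III members together made up 17.1% ± 1.62 and 18.1% ± 2.99. These ranges overlapped for each group of receptors. Grm6, a group III relative that is not among the 6, had 0 counts in 12 mice and 1 count each in mice 2 and 3 labelled LPAR2-/-, where a count of 0 allows up to 3 counts or between 0.129 and 0.192 CPM. Grm6 was thus not detectable above counting error at this depth.

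None of the 6 members passed the genotype test. That is 0 of 6 against 6.77% of all genes tested, with edgeR and likewise 0 with DESeq2 (8.6% of all genes) and with limma-voom (6.56%). At an unadjusted p under 0.05 it was 1 of 6 (Grm4), against 22.4% of all genes. In 5 of 6 members the log2 fold change was below 0, against 48.9% of all genes, although Grm5 lay so close to 0 that its sign turned with upper quartile scaling (0.0104) and in 4 of 14 fits with a mouse dropped. The median was −0.15 against 0.0029 over all genes tested. The ranges of the genotypes overlapped for every member, as they did for all but 1.77% of the genes tested. In bulk RNA, fewer cells of a type and less RNA per cell cannot be told apart.

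**Figure D2:**
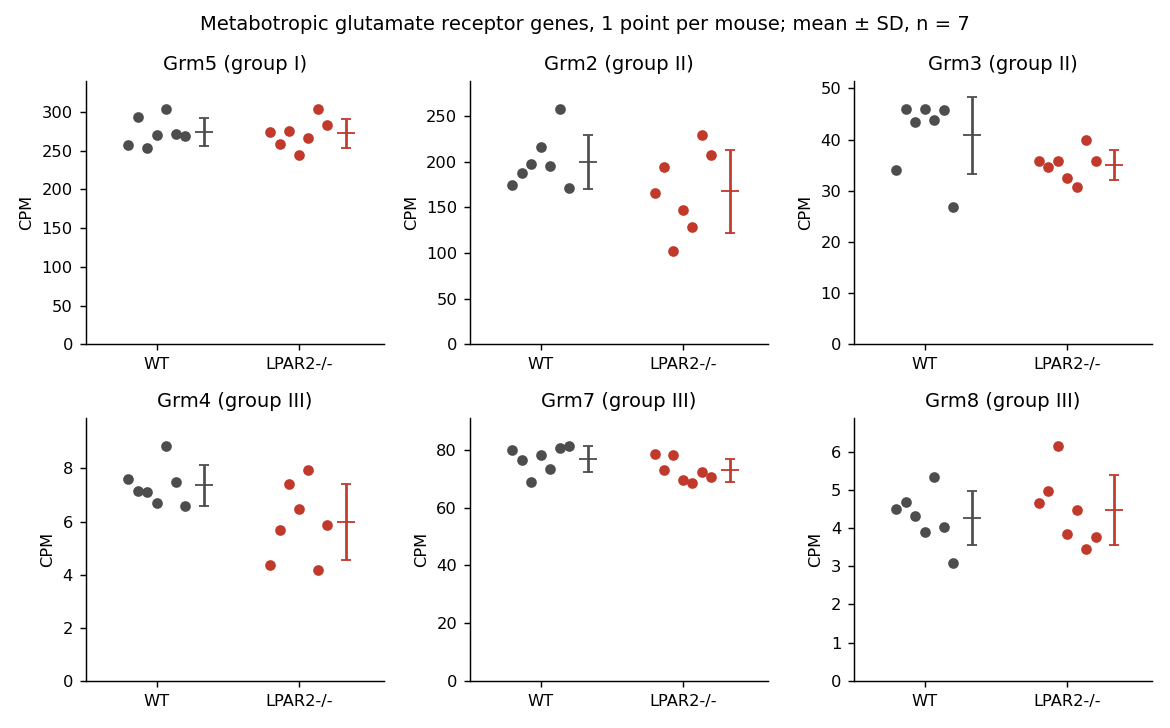
CPM of each receptor gene, 1 point per mouse, with the mean ± SD (n = 7 per genotype) beside the points and axes that start at 0. Grm2 and Grm4 are spread over a wider range in mice labelled LPAR2-/- than in WT mice, Grm3 has low WT points in mice 1 and 7, and the genotypes overlap in all panels.

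**Figure D3:**
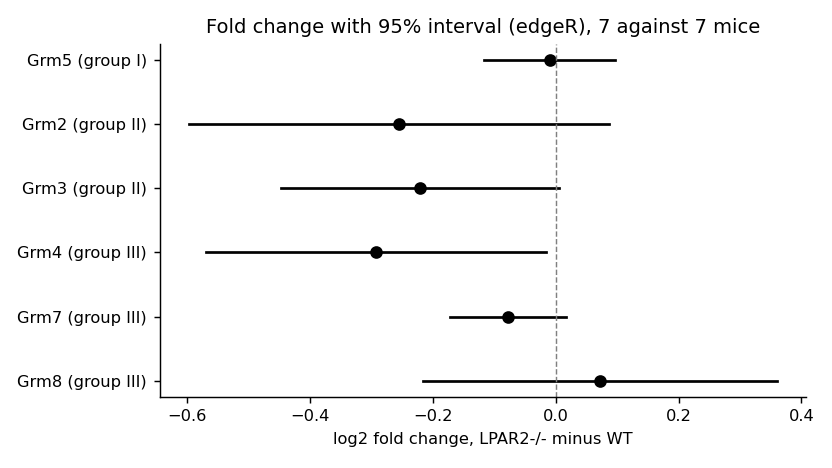
log2 fold change of each receptor gene, mice labelled LPAR2-/- minus WT, from edgeR (point) with its 95% interval (line), 7 against 7 mice. The intervals of Grm5 and Grm7 are the narrowest, and that of Grm4 alone lies wholly below 0 before adjustment over all genes.

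Grm5 encodes mGluR5, the main group I receptor of the adult hippocampus. It lies on chromosome 7 (mm10, chr7:87584168-88135063, plus strand, 8524 bases of counted exon). The WT mice had a lowest value of 253, a median of 271 and a highest of 304 CPM, and the mice labelled LPAR2-/- had 245, 275 and 304 CPM. The 2 ranges were almost the same. Its log2 fold change was −0.01 (SE 0.0504, 95% interval −0.12 to 0.10, adjusted p = 0.941, edgeR), so that changes beyond −7.73% or 6.96% lay outside the interval. From mouse to mouse Grm5 varied by 6.64% in WT mice and 6.81% in mice labelled LPAR2-/- (coefficient of variation, where counting alone gives about 1.38%).

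Grm2, which encodes the presynaptic autoreceptor mGluR2, lies on chromosome 9 (chr9:106644534-106656109, minus strand, 3323 bases of counted exon). The WT mice had a lowest value of 171, a median of 195 and a highest of 258 CPM. The mice labelled LPAR2-/- had 102, 166 and 230 CPM. Of these, 4 lay below the lowest WT mouse, and the others lay within the WT range. The log2 fold change was −0.25 (SE 0.159, 95% interval −0.60 to 0.09, adjusted p = 0.376, edgeR), and in percent the interval ran from −33.9% to 6.23%. Without mouse 3 labelled LPAR2-/- the log2 fold change was −0.16 (adjusted p = 0.490). Grm2 was the most variable member for its abundance: its spread within genotypes (SD 0.33 on the log2 scale) was wider than in 98.6% of the 500 genes tested with the most similar mean level, whose median SD was 0.09. The coefficient of variation was 14.8% in WT mice and 27.2% in mice labelled LPAR2-/-, where counting alone gives 1.62% and 1.79%.

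Grm2 moved with the markers of dentate granule cells. The summed CPM of the 7 markers of these cells (led by Stxbp6, with Calb1, C1ql2, Dsp, Trpc6, Prox1 and Tdo2) had a lowest value of 976, a median of 1169 and a highest of 1411 in WT mice and 964, 1128 and 1495 in mice labelled LPAR2-/-. Mouse 3 labelled LPAR2-/- was lowest of all 14 in both Grm2 and this sum, and WT mouse 6 and mice 6 and 7 labelled LPAR2-/- had the highest sums. That same mouse 3 also had an oligodendrocyte marker sum of 3878 CPM, against 1944 in the next highest of its group. Per 1000 CPM of dentate markers, Grm2 had a lowest value of 156, a median of 169 and a highest of 182 CPM in WT mice, and 106, 139 and 160 CPM in mice labelled LPAR2-/-. At a given dentate sum the mice labelled LPAR2-/- mostly lay below the WT mice, and the ranges of this ratio still overlapped. Within the marker list itself only Tdo2 passed the genotype test (log2 fold change 0.45, adjusted p = 0.0244, edgeR), and Trpc6 had −0.42 (adjusted p = 0.210).

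With the dentate marker sum as a covariate, a fit chosen after the values of Grm2 and of the markers had been seen, the log2 fold change of Grm2 was −0.32 (SE 0.0633, adjusted p = 0.00511, edgeR). Dropping each mouse in turn, it passed in all 14 fits (highest adjusted p 0.0134) and with a sum that left out Tdo2 and Trpc6 (−0.34, adjusted p = 0.00176). These refits share most mice or markers with the first and carry the same choice of covariate, so they are not independent support for the call. The fit with all 14 mice and all 7 markers called 1770 genes (11.9% of those tested), more than the fit without the covariate. With each of the other 14 marker lists as the covariate, Grm2 passed with 2, CA3 pyramidal cells (adjusted p = 0.00923) and inhibitory interneurons (adjusted p = 0.0155), and its adjusted p reached 0.680 with the striatal list. The striatal sum itself nearly separated the genotypes (57.7 to 68.2 CPM in WT mice, 67.1 to 77.8 in mice labelled LPAR2-/-). That fit called only 75 genes over the table, and the fit with oligodendrocyte precursors 304. A covariate that follows genotype leaves little for the genotype term, so the striatal fit cannot decide the call. The log2 fold change of Grm2 stayed below 0 with all 14 lists, from −0.56 (oligodendrocyte precursors) to −0.23 (microglia). The call for Grm2 thus turned on the choice of covariate, its direction did not, and without a covariate it did not pass. What part the share of dentate tissue in each sample had in it was not tested.

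**Figure D4:**
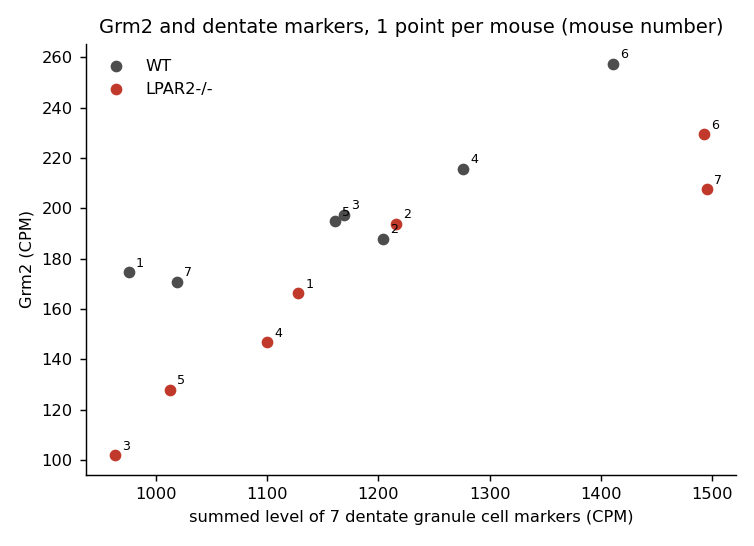
Grm2 (CPM) against the summed CPM of 7 dentate granule cell markers, 1 point per mouse with the mouse number (grey, WT; red, labelled LPAR2-/-). Grm2 is higher where the marker sum is higher in both genotypes, mouse 3 labelled LPAR2-/- is lowest in both (102 and 964 CPM), and most red points lie below the grey ones at a similar sum.

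Grm3 encodes mGluR3, the other group II receptor, made by both neurons and astrocytes. It lies on chromosome 5 (chr5:9485236-9725352, minus strand, 3536 bases of counted exon). The WT mice had a lowest value of 26.8, a median of 43.7 and a highest of 45.9 CPM, and the mice labelled LPAR2-/- had 30.6, 35.8 and 40.0 CPM. Of the WT mice, 5 lay above every mouse labelled LPAR2-/-, whereas WT mice 1 (34.0 CPM) and 7 (26.8 CPM) lay among or below them. The log2 fold change was −0.22 (SE 0.106, 95% interval −0.45 to 0.01, adjusted p = 0.236, edgeR). Leaving out WT mouse 7 made the difference larger: the log2 fold change was then −0.30 and the adjusted p 0.0226, the only one of 14 such fits that passed (adjusted p up to 0.385 in the others). With the dentate marker sum as a covariate, chosen after the values were seen, Grm3 was at −0.22 (adjusted p = 0.0999) and passed in 2 of 14 such fits, without WT mouse 7 (adjusted p = 0.00370) and without mouse 3 labelled LPAR2-/- (adjusted p = 0.0396). WT mice 1 and 7 were also the lowest WT mice in the dentate marker sum (976 and 1019 CPM) and in Grm2 (175 and 171 CPM). WT mouse 1 also had the lowest WT sum of oligodendrocyte precursor markers, 125 CPM against 147 in the next lowest. The astrocyte marker sum, led by Aldoc, ranged from 1946 to 2215 CPM in WT mice and from 1784 to 2225 in mice labelled LPAR2-/-. The part of either cell type in the level of Grm3 was not tested.

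Grm4 encodes mGluR4, a presynaptic group III receptor known best from the cerebellum and the basal ganglia. It lies on chromosome 17 (chr17:27422388-27503533, minus strand, 4381 bases of counted exon) and had 70 to 181 counts per mouse. The WT mice had a lowest value of 6.59, a median of 7.15 and a highest of 8.85 CPM, and the mice labelled LPAR2-/- had 4.18, 5.89 and 7.95 CPM. Of the mice labelled LPAR2-/-, 5 lay below the lowest WT mouse and the other 2 within the WT range. In this fit Grm4 had the lowest log2 fold change of the members, −0.29 (SE 0.131, 95% interval −0.57 to −0.02), which did not pass adjustment over all genes (adjusted p = 0.197, edgeR; exact two-sided permutation test of this gene alone, p = 0.0390). With each mouse dropped in turn, Grm4 stayed below 0 and short of the threshold in all 14 fits (−0.37 to −0.22, lowest adjusted p 0.108). In WT mice the coefficient of variation of 10.3% was close to the 8.41% that counting gives, and in mice labelled LPAR2-/- it was 23.7% against 9.52%. The striatal marker sum, led by Ppp1r1b, ranged from 57.7 to 68.2 CPM in WT mice and from 67.1 to 77.8 in mice labelled LPAR2-/-, opposite in direction to Grm4. Its part in the level of Grm4 was not tested.

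Grm7 encodes mGluR7, the group III receptor of the presynaptic active zone. It lies on chromosome 6 (chr6:110645598-111567230, plus strand, 4181 bases of counted exon). The WT mice had a lowest value of 68.8, a median of 78.1 and a highest of 81.3 CPM, and the mice labelled LPAR2-/- had 68.6, 72.2 and 78.4 CPM. Of the latter, 6 lay below the WT median but only 1 below the lowest WT mouse. The log2 fold change was −0.08 (SE 0.0446, 95% interval −0.17 to 0.02, adjusted p = 0.324, edgeR). This was the narrowest interval among the members, which in percent ran from −11.2% to 1.17%.

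Grm8, which encodes the group III receptor mGluR8, also lies on chromosome 6 (chr6:27275121-28134369, minus strand, 3678 bases of counted exon). With 53 to 142 counts per mouse it was the scarcest member. The WT mice had a lowest value of 3.09, a median of 4.32 and a highest of 5.33 CPM, and the mice labelled LPAR2-/- had 3.46, 4.47 and 6.15 CPM. Only mouse 3 labelled LPAR2-/- exceeded the highest WT mouse. Grm8 was the only member with a log2 fold change above 0, at 0.07 (SE 0.136, 95% interval −0.22 to 0.36, adjusted p = 0.804, edgeR), and without that mouse, which had the oligodendrocyte marker sum of 3878 CPM, it was −0.02. In percent its interval ran from −13.9% to 28.3%.

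The members were also compared with each other from mouse to mouse, with the mean of each genotype removed. Of the 15 pairs, 0 passed an adjusted p of 0.05 (permutation test within genotype, lowest adjusted p 0.425), and 1 had an unadjusted p under 0.05 by Pearson's r and 2 by Spearman's rho. By both it was Grm2 with Grm3, the group II receptors (Pearson's r = 0.46, permutation p = 0.0292, adjusted p = 0.425; Spearman's rho = 0.56, permutation p = 0.0251, adjusted p = 0.188). By rho it was also Grm3 with Grm5 (rho = 0.62, permutation p = 0.0176, adjusted p = 0.188; r = 0.42, permutation p = 0.144, adjusted p = 0.431), with r = 0.51 without WT mice 1 and 7, 0.32 within WT mice and 0.78 within mice labelled LPAR2-/-. For Grm2 with Grm3, r was 0.59 without the 2 mice farthest from the median of Grm2, 0.68 within WT mice and 0.54 within mice labelled LPAR2-/-. Grm2 and Grm4 had the r farthest from 0 (r = −0.62, permutation p = 0.0716, adjusted p = 0.425; rho = −0.55, permutation p = 0.0755, adjusted p = 0.378). That relation rested on mice labelled LPAR2-/-, with r = −0.76 within them and 0.09 within WT mice, and r was −0.33 without mice 3 and 6 labelled LPAR2-/-.

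The genes tested whose pattern over the 14 mice was most like that of a member, again with genotype means removed, are given as a description. For Grm2 they were Rogdi (r = 0.98), Tnip2 (r = 0.97) and Pitpnm2 (r = 0.97), and 120 genes had an r above 0.9 and 56 one below −0.9. For Grm3 they were Tbx6 (r = 0.93, at only 2.00 CPM), Syne4 (r = 0.93) and Trpc6 (r = 0.92), the last of which is on the list of dentate markers. Grm5 was most like Aasdhppt (r = 0.93), Pde3b (r = 0.91) and Abcd3 (r = 0.89). For the group III members no gene had an r above 0.9. Grm4 was most like Mob3a (r = 0.86), Dach1 (r = 0.85) and Smurf1 (r = 0.84), Grm7 like Enox2 (r = 0.87), Herc3 (r = 0.84) and Sec16b (r = 0.82), and Grm8 like Agfg1 (r = 0.87), Fer (r = 0.86) and Mir703 (r = 0.86). All these values share the same 14 libraries and their depth.

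The group II receptor genes Grm2 and Grm3 are shown with the 250 bases before their annotated start sites, from RefSeq (GRCm38.p6). The sequences are on the strand of the gene and 5′ to 3′, with capitals marking the GC box, GGGCGG. The window of Grm2 is chr9:106656110-106656359 and that of Grm3 is chr5:9725353-9725602, both on the minus strand.
Grm2: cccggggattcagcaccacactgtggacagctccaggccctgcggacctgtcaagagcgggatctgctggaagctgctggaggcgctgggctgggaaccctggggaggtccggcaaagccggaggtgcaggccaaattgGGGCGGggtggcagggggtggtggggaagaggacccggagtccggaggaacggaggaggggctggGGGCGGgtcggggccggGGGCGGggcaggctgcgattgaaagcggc
Grm3: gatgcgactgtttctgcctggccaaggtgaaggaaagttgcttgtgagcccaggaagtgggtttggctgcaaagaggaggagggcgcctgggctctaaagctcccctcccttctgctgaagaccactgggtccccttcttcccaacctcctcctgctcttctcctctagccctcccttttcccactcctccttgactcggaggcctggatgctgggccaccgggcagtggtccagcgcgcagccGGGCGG
Grm2 had 3 GC boxes, whose distances to the start site, counted from the first base of the box, were 111, 46 and 29 bases. Grm3 had 1, at 6 bases, which ends next to the start site. The box was not particular to these genes: both windows of Grm7 held it, as the same box at 63 and 149 bases, and 1 window of Grm8 did, at 56 bases. The letters were searched on both strands, and 32.7% of the 32851 windows of this length in the table hold at least 1. The share of G and C was 71.2% in the window of Grm2 and 62.4% in that of Grm3, against a median of 52.4% over all windows. Of the members, 4 of 6 had windows (all but Grm4 and Grm5), 7 in all, because Grm7 and Grm8 have several start sites. The letters of an EGR motif, GCGGGGGCG (2.57% of windows), and of a cyclic AMP response element, TGACGTCA (1.55%), were not found in any of the 7. The GC box was added to the search after those gave no match.

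Genes that act with the receptors were counted in 5 lists with 79 genes, all of them tested. Of these, 4 (5.06%) passed the genotype test, against 6.77% of all genes, 2 of them higher and 2 lower. The median log2 fold change over the 79 genes was −0.02, and 50 (63.3%) were below 0, against 48.9% of all genes. At an unadjusted p under 0.05 the lists held 16 genes (20.3%), against 22.4% of all genes. DESeq2 called 6 of the 79 (7.59%, against 8.6% of all genes) and limma-voom 4 (5.06%, against 6.56%).

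Among genes of Gq and calcium signalling, which group I receptors use, 1 of 17 was called (5.88%, against 6.77% of all genes). At an unadjusted p under 0.05 in edgeR it was 4 (23.5%, against 22.4%). Rgs4, a brake on Gq and Gi/o signals, had a lowest value of 148, a median of 155 and a highest of 174 CPM in WT mice and 110, 133 and 151 CPM in mice labelled LPAR2-/-. Only the edges of these ranges overlapped. Rgs4 fell by 0.26 on the log2 scale (SE 0.0596, adjusted p = 0.0170, edgeR) and passed whichever mouse was dropped (14 fits). Among the scaffolds and partners of group I receptors, 1 of 13 (7.69%) was called by edgeR, against 6.77% of all genes, and 1 by limma-voom, against 6.56%. DESeq2 called 3 (23.1%), against 8.6% of all genes, and 5 (38.5%) had an unadjusted p under 0.05 in edgeR, against 22.4%. Shank1, a postsynaptic scaffold, fell by 0.13 (SE 0.0368, adjusted p = 0.0495), with 408 to 474 CPM in WT mice and 392.4 to 420.7 in mice labelled LPAR2-/-, and passed in only 1 of 14 fits with a mouse dropped (highest adjusted p 0.108). Homer1, which ties Grm5 to that scaffold, stood at −0.12 (adjusted p = 0.316, edgeR). Its relatives Homer2 (−0.33, adjusted p = 0.0574) and Homer3 (−0.26, adjusted p = 0.218) and the scaffold Shank2 (−0.19, adjusted p = 0.0789), named after their values were seen, also missed the threshold in edgeR. Cav1, the other gene of the 5 and likewise named after its value was seen, went the other way and missed it too (0.29, adjusted p = 0.133).

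Of the 19 genes of Gi/o and cyclic AMP signalling, which group II and III receptors use, 2 were called (10.5%, against 6.77% of all genes). At an unadjusted p under 0.05 in edgeR it was 5 (26.3%, against 22.4%). Prkaca, a catalytic subunit of protein kinase A, rose by 0.19 (SE 0.0482, adjusted p = 0.0257, edgeR), from a median of 207 CPM (185 to 233) to 243 CPM (223 to 252), and passed in 8 of 14 such fits (highest adjusted p 0.0612). Rgs14, a Gi/o regulator known from CA2 pyramidal cells, rose by 0.29 (SE 0.0759, adjusted p = 0.0316), from a median of 85.0 CPM (73.0 to 90.1) to 99.9 CPM (83.7 to 120), and passed in 6 of 14 (highest adjusted p 0.0691). In each, the ranges overlapped. None of the 15 partners and desensitisation genes of group II and III receptors was called, with Elfn1, a synaptic organiser that binds group III receptors, at −0.02 (adjusted p = 0.938). None of the 15 genes of glutamate supply, uptake and N-acetylaspartylglutamate was called either. Of these, Slc1a2, the main astrocytic glutamate transporter, had −0.07 (adjusted p = 0.337), and Folh1, which cleaves the Grm3 agonist N-acetylaspartylglutamate, had −0.04 (adjusted p = 0.924). In each of these lists DESeq2 and limma-voom also called 0 genes, and 1 gene (6.67%, against 22.4% of all genes) had an unadjusted p under 0.05 in edgeR. These were Elfn2 among the partners (−0.13) and Glul, the glutamine synthetase, in the glutamate list (−0.14), both named after their values were seen.

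**Figure D5:**
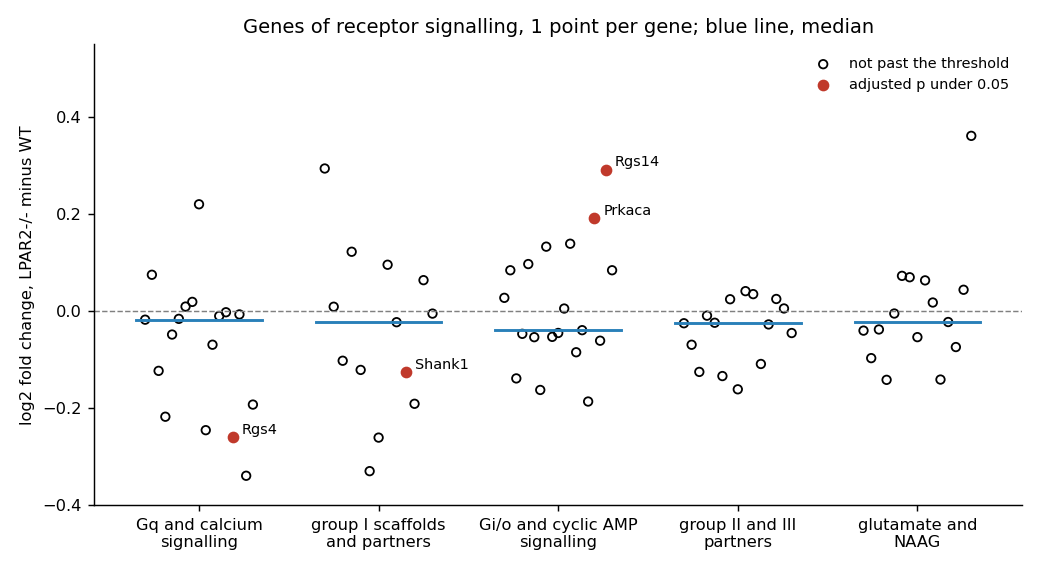
log2 fold change of each gene in the 5 lists, mice labelled LPAR2-/- minus WT, 1 point per gene, with the blue line at the list's median. The medians lie close to 0 (−0.04 to −0.02), and the 4 filled points (Rgs4, Shank1, Rgs14, Prkaca) are the genes past the threshold.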

How the data were processed

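RNA of the hippocampus was sequenced by the authors after depletion of ribosomal RNA (Ribo-Zero), with 1 library per mouse. Per the paper's methods and the submitters' processing notes, the authors used cutadapt 1.18 for trimming, STAR for alignment to mm10, and featureCounts 1.6.3 for strand-specific (reverse) counting over exons, in which a read with several matches was dropped. The deposited counts carry no normalization. A deposited table of normalized values was not used, because its decimal points were not intact. All 14 columns of counts were used (columns of other samples: 0). The labels do not say whether mice came from separate litters or batches, so that p-values measure the spread between these mice.

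Genes were filtered with filterByExpr, normalized by TMM and tested in edgeR 4.0.16 (R 4.3.3; glmQLFit, robust) for genotype alone, 7 against 7 mice, with Benjamini-Hochberg adjustment over 14897 genes and a threshold of 0.05. log2 CPM used a prior count of 2. DESeq2 1.42.0, limma 3.58.1 (voom), RLE and upper quartile normalization, other filters, a mouse-number block and leaving out each mouse were tried as alternatives. 95% intervals of fold changes come from the fitted SE and its residual degrees of freedom. The floor of 3 counts and the variation given for counting alone cover counting error only. No exon of a member overlapped one of another gene of the table. Within genotypes, every pair of libraries (42) differed by more than sampling noise (chi-square per degree of freedom at least 3.41). The scripts were tested on simulated data. The genes named were the members, Lpar2, the 3 most similar genes of each member, every gene of the 5 lists past the threshold, Homer1, Slc1a2, Folh1 and Elfn1, and the leading gene of a marker list. Grm6, the other dentate markers, Elfn2, Glul, Homer2, Homer3, Shank2 and Cav1 were named besides this rule. Members and lists were chosen with earlier results of these data known.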

Additional observations from a re-analysis of the deposited data

Results flagged for a closer look

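No level of a receptor gene stood apart in a group of 7 mice. Of 44 groups of values examined (the members, Lpar2 and 15 marker sums in each genotype), 5 held a mouse far from the others, and chance gives about 1 in 20. The CA1 pyramidal cell marker sum was 343 CPM in WT mouse 2, against 145 CPM in the next highest WT mouse. The choroid plexus sum was 280 CPM in mouse 2 labelled LPAR2-/-, against 50.9 CPM. The meningeal sum was 281 CPM in WT mouse 4, against 146 CPM. The oligodendrocyte precursor sum was lowest in WT mouse 1, at 125 CPM against 147 CPM. The oligodendrocyte sum was 3878 CPM in mouse 3 labelled LPAR2-/-, against 1944 CPM, and this mouse also had the lowest Grm2 and the highest Grm8 of its group.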

How the results depend on the processing

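Grm4 and Grm7 stayed below 0 and short of the threshold under every alternative run. Grm2 did too under 8 other choices of test, scaling, filter or block (adjusted p up to 0.449) and without any 1 mouse (−0.35 to −0.16), and passed only with covariates added after its values were seen: the marker sum of dentate granule cells (−0.32), the same without Tdo2 and Trpc6 (−0.34), CA3 pyramidal cells (−0.42) and inhibitory interneurons (−0.41). Grm3 ranged from −0.30 (without WT mouse 7, adjusted p = 0.0226, edgeR) to −0.19 when 1 mouse was left out. Grm5 changed sign with the upper quartile (0.0104), with the marker sums of microglia (0.0119), endothelium (0.00802), choroid plexus (0.0129), meninges (0.00802) and striatum (0.0650) as covariates, and when 1 mouse was left out (−0.0376 to 0.0165). Grm8 ranged from −0.0246 (without mouse 3 labelled LPAR2-/-) to 0.133 when 1 mouse was left out. The cause of these changes was not tested. The order per length and the 0 correlated pairs were the same under all alternatives run, except that without division by length Grm5 came first.

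The count of genes called over the table was 1009 (494 higher, 515 lower), 1398 with DESeq2, 977 with limma-voom, 858 without a filter and from 567 (without WT mouse 2) to 1385 (without WT mouse 1) when 1 mouse was left out (275 to 660 higher, 292 to 725 lower). It was 1770 (742 higher, 1028 lower) with the dentate covariate and from 75 (striatum) to 1875 (CA3 pyramidal cells) with the other 14 lists. With the upper quartile, 62.0% of calls were higher, against 49.0%, and the median of all genes moved to 0.0232. Of the signalling genes, Rgs14 and Shank1 no longer passed with the replicate block (adjusted p = 0.0508 and 0.102, edgeR), and Shank1 also failed with the upper quartile (0.111), no filter (0.0803) and at least 10 counts in every library (0.0514). Mouse numbers did not pair the mice (correlations −0.33 to 0.31, 3 of 7 above 0.1). The replicate block gave 586 calls (314 higher, 272 lower) and log2 fold changes of −0.01 for Grm5, −0.29 for Grm2, −0.21 for Grm3, −0.31 for Grm4, −0.08 for Grm7 and 0.07 for Grm8, none past the threshold.

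Counting alone gives coefficients of variation of 8.41% to 11.1% for Grm4 and Grm8 (53 to 181 counts per mouse), against 10.3% to 23.7% measured. For Grm2 (2354 to 4315 counts) counting gives at most 1.79%, against 14.8% and 27.2% measured. The separate colonies, the uncertain age and region, and the Lpar2 counts that go against the labels limit what the genotype comparison can be read for.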
